A study of Homo sapiens with 9 samples.

Results

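The genes described here are 10 members of the NF-kB pathway and its inflammatory output: the subunits NFKB1, NFKB2 and RELB, the inhibitors NFKBIA and TNFAIP3, and the target genes CXCL8, CXCL1, IL6, BIRC3 and ICAM1. They were followed in HT1080, a line grown from a human fibrosarcoma, on 9 Affymetrix expression arrays. A member was measured where a probe set annotated with its symbol had values, which held for 6 of the 10 members, out of 9453 genes measured by a probe set with 1 symbol. The 3 groups of 3 arrays were MTAP-negative cells without treatment, MTAP-positive cells without treatment, and MTAP-positive cells kept for 48 hours with 10 µM of MT-DADMe-ImmA, which blocks the MTAP enzyme. MTAP, methylthioadenosine phosphorylase, recycles a by-product of polyamine synthesis towards methionine and adenine. All cells were grown in DMEM, the 3 arrays of a group were biological replicates per the design text, and the sources used here do not say how the MTAP-positive cells were made or whether they are 1 clone.

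RELB, a subunit of NF-kB, was 1.77-fold higher in MTAP-positive than in MTAP-negative cells, and TNFAIP3, the ubiquitin-editing enzyme also known as A20 that restrains the pathway, was 1.62-fold lower. Both differences were also called for inhibitor-treated against MTAP-negative cells, where RELB was 2.23-fold higher and TNFAIP3 1.52-fold lower. NFKB2 read higher on inhibitor-treated than on MTAP-negative arrays, but its probe set is in the deposited table only through MTAP-positive and inhibitor-treated arrays, and its call was lost in 3 of 19 alternatives. NFKB1 lay within a narrow band on all 9 arrays, and adding the inhibitor to MTAP-positive cells moved no member past the test.

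NF-kB proteins are dimers that wait in the cytoplasm, held by inhibitors of the IkB family. In the canonical branch a receptor signal destroys IkB-alpha, the product of NFKBIA, and frees dimers such as RELA with p50, which is cut from the product of NFKB1. In the slower noncanonical branch the product of NFKB2 is cut to p52, which pairs with RELB. NFKBIA, TNFAIP3, NFKB2 and RELB are themselves targets of the pathway, so that it feeds back on itself, and the chemokine CXCL8 is a classic output in fibroblasts and tumour cells.

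The pathway's binding site can be seen in front of several of these genes, and the stretches below are shown for the members with values that had a match. Sequences are from RefSeq (GRCh38.p14), matched by symbol for 9 of the 10 members with 12 listed starts, RELB being the one without a match. They are printed 5′ to 3′ along the gene, with capitals marking matches on either strand to the NF-kB consensus with any first base, overlapping matches being merged. CXCL8, NFKBIA and NFKB1 are shown over the 120 bases before the start, and TNFAIP3 and NFKB2 as 30 bases around matches.
CXCL8, chr4:73740449-73740568, plus strand: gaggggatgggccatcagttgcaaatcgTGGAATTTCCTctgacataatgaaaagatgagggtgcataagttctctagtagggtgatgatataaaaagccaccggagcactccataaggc
NFKBIA, chr14:35404750-35404869, minus strand: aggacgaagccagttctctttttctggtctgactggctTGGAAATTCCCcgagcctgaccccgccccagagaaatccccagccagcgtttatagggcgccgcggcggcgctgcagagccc
NFKB1, chr4:102501239-102501358, plus strand: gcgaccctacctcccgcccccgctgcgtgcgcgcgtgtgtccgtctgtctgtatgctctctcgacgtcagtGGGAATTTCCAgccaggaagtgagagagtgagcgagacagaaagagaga
TNFAIP3, chr6:137867187-137867216, plus strand: actttGGAAAGTCCCgTGGAAATCCCCggg
NFKB2, the second of 3 listed starts, chr10:102394466-102394495, plus strand: gtcaTGGGAATTCCCCcctccggggggccg
NFKB2, the third start, chr10:102395669-102395698, plus strand: ccccttggtattttcGGGACTTTCCtaagc

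The strict consensus of 10 letters, which begins with G, was found in 8 of the 12 members' promoter windows (250 bases before to 50 after a start), against 11.3% of 35116 windows of this length. With any first base it was found in 11 of 12, against 32.0%. The members were chosen as known pathway genes, so these counts describe the choice. The nearest match to the start of CXCL8 began 91 bases before it, that of NFKBIA 81, of TNFAIP3 55 and of NFKB1 48. Such letters stand close to a start both in TNFAIP3, which was called, and in NFKB1, which was not. Whether matches relate to calls was not tested. A match is a run of letters and says nothing of binding in these cells.

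The values are log2 levels made by the authors with RMA, for 17466 probe sets other than controls. MTAP itself followed the labels: its 2 probe sets with values averaged 4.56 and 3.96 in MTAP-negative cells and between 11.20 and 11.63 in the other groups. Of the mesenchymal markers, fitting for a fibrosarcoma, 9 of 12 had values, and of the epithelial, blood and endothelial markers 2 of 12, 2 of 12 and 1 of 8. The epithelial KRT18 and KRT8 averaged 12.35 and 9.87 over all arrays, the endothelial TIE1 11.11, and the blood markers LCP1 and LYZ 9.94 and 5.97. TIE1 was called higher in MTAP-positive and in inhibitor-treated than in MTAP-negative cells (limma, adjusted p = 0.0333 and 0.00231). RNA integrity, read as the 5′ probe set of ACTB minus its 3′ probe set, was -2.50 ± 0.90 in MTAP-negative, -1.43 ± 0.45 in MTAP-positive and -1.64 ± 0.66 in inhibitor-treated cells (SD, n = 3). The count of probe sets called between MTAP-positive and MTAP-negative cells, 2586, went to 851 with this reading as a covariate. It went to 1630 and 1458 without MTAP-negative replicate 2 or 3. In bulk RNA, fewer cells that make a transcript and less of it per cell cannot be told apart.

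Differences are between group means on the log2 scale with the standard error (SE) of a limma fit to all 9 arrays, and p-values were adjusted by Benjamini-Hochberg over all 17466 probe sets, with 0.05 as the threshold. The 16 member probe sets in the annotation included 7 with values: 2 of CXCL8 and 1 each of NFKBIA, TNFAIP3, NFKB1, NFKB2 and RELB. The other 9 were blank on every array. They were all of those for CXCL1, a neutrophil chemokine (1), for IL6, the cytokine interleukin-6 (1), and for ICAM1, an adhesion molecule (3), besides 2 of NFKB2, 1 of TNFAIP3 and 1 of NFKBIA. BIRC3, which encodes an inhibitor of apoptosis that acts on TNF receptor complexes, was not analysed here. The deposited table holds only probe sets that reached 6.64, log2 of 100, on at least 3 arrays, so a blank says that a probe set was not kept and not that the gene was silent.

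RELB, the transactivating subunit that pairs with p52, was read by 1 probe set. It stood at 7.22, 7.05 and 6.72 on the MTAP-negative arrays, at 7.93, 7.68 and 7.84 on the MTAP-positive arrays and at 8.19, 8.18 and 8.09 on the inhibitor-treated arrays, in the order of replicates 1 to 3. No array of one group overlapped with another group, the MTAP-negative arrays being lowest and the inhibitor-treated arrays highest. In log2 units with the SE, MTAP-positive cells exceeded MTAP-negative cells by 0.82 ± 0.14 (adjusted p = 0.00465), and inhibitor-treated cells exceeded MTAP-negative cells by 1.16 ± 0.14 (adjusted p = 3.89e-04). The rise from MTAP-positive to inhibitor-treated cells was 0.33 ± 0.14, with a 95% interval from 0.03 to 0.64, and did not pass (adjusted p = 0.148). RELB passed in both comparisons with MTAP-negative cells under all 20 alternatives tried. The adjusted p nearest to the threshold was 0.0493, for MTAP-positive against MTAP-negative cells with the ACTB covariate.

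NFKB2, which encodes the p100 precursor of p52, was dim. Its MTAP-negative arrays read 6.52, 6.52 and 6.16, all under the level of 6.64 that the authors' table required on 3 arrays. The MTAP-positive arrays read 7.33, 7.25 and 6.64, the last just short of that level, and the inhibitor-treated arrays 7.28, 7.99 and 6.91. The probe set therefore entered the table through MTAP-positive and inhibitor-treated arrays alone, and a gene kept in this way had to look lower in MTAP-negative cells. The mean of the MTAP-positive arrays stood 1.35-fold above that level, and that of the inhibitor-treated arrays 1.68-fold. These are distances from the level and not lower limits of the difference.

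In array values NFKB2 was 0.67 ± 0.27 higher in MTAP-positive than in MTAP-negative cells (adjusted p = 0.126) and 0.99 ± 0.27 higher in inhibitor-treated than in MTAP-negative cells (adjusted p = 0.0225). The second p is under the threshold, but the rule for keeping probe sets fixed its direction, so it is given as a description. It rose past the threshold without MTAP-negative replicate 3 (0.87 ± 0.31, adjusted p = 0.0719) and without inhibitor-treated replicate 2 (0.69 ± 0.23, adjusted p = 0.0595). It also did so with the ACTB covariate (0.58 ± 0.21, adjusted p = 0.0798), which took the first difference from 0.67 to 0.16. With the replicate number as a block the first difference had an adjusted p of 0.0264, to which the same limit applies. From MTAP-positive to inhibitor-treated cells NFKB2 differed by 0.32 ± 0.27 (adjusted p = 0.497), with an interval from -0.29 to 0.93.

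NFKB1, the source of p50, read 8.79, 8.77 and 8.82 in MTAP-negative cells, 8.93, 8.77 and 8.73 in MTAP-positive cells and 8.88, 8.89 and 8.66 with inhibitor. The groups overlapped in all 3 comparisons. Its largest difference was 0.02 ± 0.11 (inhibitor-treated against MTAP-negative, 95% interval from -0.22 to 0.25, adjusted p = 0.926). RELA, the main canonical partner of p50 and not one of the members, read 9.78 ± 0.07, 10.04 ± 0.16 and 10.13 ± 0.06 in MTAP-negative, MTAP-positive and inhibitor-treated cells (SD, n = 3). It passed only between inhibitor-treated and MTAP-negative cells, by 0.35 ± 0.11 (adjusted p = 0.0348), a call lost in 9 of 20 alternatives, among them each left-out MTAP-negative or inhibitor-treated array (adjusted p of up to 0.114).

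**Figure D1:**
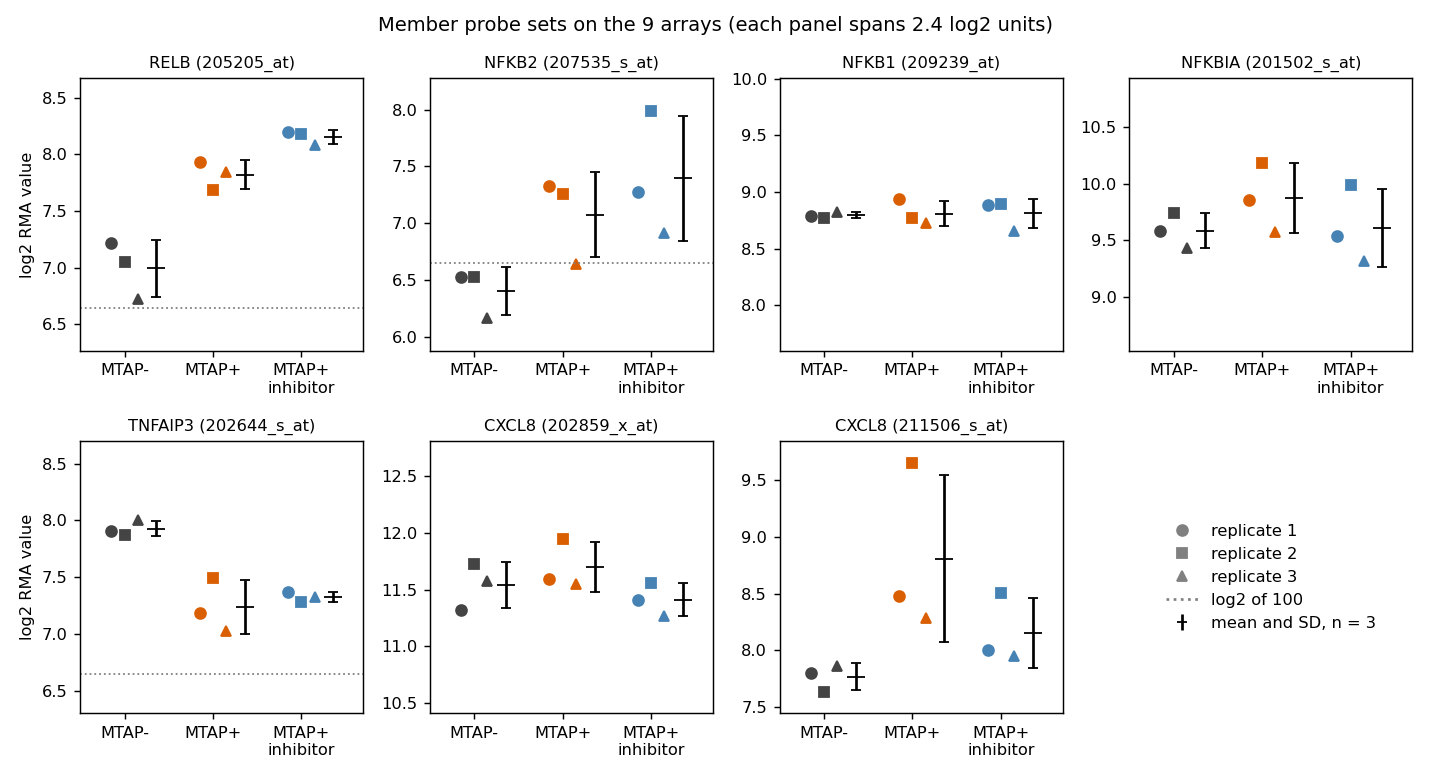
Log2 RMA values of the 7 member probe sets with values (vertical axis) on the 9 arrays, by group; symbols are replicate numbers, bars are the mean and SD of 3 arrays, and the dotted line is log2 of 100. The RELB arrays of the 3 groups lie in separate bands, TNFAIP3 is highest on the 3 MTAP-negative arrays (7.87 to 8.00), and NFKB1 is level.

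Among the inhibitors, TNFAIP3 separated the MTAP-negative cells from both other groups. It read 7.91, 7.87 and 8.00 on the MTAP-negative arrays, 7.19, 7.50 and 7.02 on the MTAP-positive arrays and 7.37, 7.29 and 7.32 with inhibitor. Every MTAP-negative array lay above every other array, while the MTAP-positive and inhibitor-treated arrays overlapped. TNFAIP3 fell by 0.69 on the log2 scale between MTAP-negative and MTAP-positive cells (SE 0.13, adjusted p = 0.00715) and by 0.60 from MTAP-negative to inhibitor-treated cells (SE 0.13, adjusted p = 0.00636). The inhibitor left a difference of 0.09 ± 0.13 from MTAP-positive cells (adjusted p = 0.698, 95% interval from -0.19 to 0.37). Both calls held in the 19 alternatives that gave a value, and the adjusted p nearest to the threshold was again that with the ACTB covariate (0.0475, with the difference at -0.71).

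NFKBIA, which encodes IkB-alpha and is among the first genes NF-kB switches on, read 9.58, 9.74 and 9.43 in MTAP-negative cells. It read 9.86, 10.18 and 9.57 in MTAP-positive cells, and 9.53, 9.99 and 9.31 with inhibitor. The groups overlapped in all comparisons, and in each group replicate 2 was the highest array and replicate 3 the lowest. The differences were 0.29 ± 0.20 for MTAP-positive against MTAP-negative cells (adjusted p = 0.358), -0.26 ± 0.20 for the inhibitor (adjusted p = 0.443) and 0.03 ± 0.20 for inhibitor-treated against MTAP-negative cells (adjusted p = 0.932). With the replicate block the first of these had an SE of 0.10 and an adjusted p of 0.0821, and with the ACTB covariate it was -0.05 ± 0.19. TNFAIP3 and NFKBIA, both feedback inhibitors with a consensus match near the start, thus had different array patterns, a contrast that was not tested.

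CXCL8, the neutrophil chemokine interleukin-8, was read by 2 probe sets that gave different pictures. The first, whose suffix _x_at marks probes that may also bind other transcripts, read 11.32, 11.72 and 11.58 in MTAP-negative cells, 11.59, 11.95 and 11.55 in MTAP-positive cells and 11.41, 11.56 and 11.27 with inhibitor. All groups overlapped, and its differences were 0.16 ± 0.15 (MTAP-positive against MTAP-negative, adjusted p = 0.517), -0.28 ± 0.15 (inhibitor, adjusted p = 0.261) and -0.13 ± 0.15 (inhibitor-treated against MTAP-negative, adjusted p = 0.552).

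The second CXCL8 probe set read 7.80, 7.63 and 7.87 in MTAP-negative cells, 8.48, 9.65 and 8.29 in MTAP-positive cells and 8.00, 8.51 and 7.95 with inhibitor. Every MTAP-negative array lay below every other array, and MTAP-positive replicate 2 was the highest of all. The difference between MTAP-positive and MTAP-negative cells was 1.04 ± 0.31 and just missed the threshold (adjusted p = 0.0533). The difference passed in 5 of 18 alternatives and did not in the other 13. Without MTAP-positive replicate 2 it was smaller and passed, at 0.62 ± 0.18 (adjusted p = 0.0462). Among the others that passed were those without MTAP-positive replicate 3 (1.30 ± 0.31, adjusted p = 0.0358) and with the replicate block (adjusted p = 0.0296). With the ACTB covariate the difference was 0.73 ± 0.38 (adjusted p = 0.317). With inhibitor the second probe set differed by -0.66 ± 0.31 (adjusted p = 0.215), and inhibitor-treated differed from MTAP-negative cells by 0.39 ± 0.31 (adjusted p = 0.380). Both probe sets had their highest group mean in MTAP-positive cells, but a test of the difference between them was not made.

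Over the 7 member probe sets, 1 was called higher and 1 lower in MTAP-positive than in MTAP-negative cells, where 14.8% of all probe sets were called in either direction (10.0% higher, 4.78% lower). Groups did not overlap for 4 of the 7, against 33.7% of all probe sets (20.1% higher, 13.5% lower). With the replicate block 4 were called, the added ones being NFKB2 and the second CXCL8 probe set, while the share of all probe sets called went from 14.8% to 21.6%. NFKB2, kept through its higher groups alone, is also 1 of the 4 without overlap. The median difference of the 7 was 0.29, against 0.04 over all probe sets. Centring the arrays turned the split of all calls from 1751 higher and 835 lower to 1281 and 1276, and kept both member calls.

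With inhibitor, 0 of 7 were called by limma, where 10.3% of all probe sets were (4.86% higher, 5.48% lower). The count stayed 0 in all 20 alternatives, and 1 probe set, RELB, had an unadjusted p below the threshold. RELB was also the 1 probe set without overlap, against 33.2% of all (15.2% higher, 18.1% lower). The median difference was 0.00 against -0.02 over all probe sets. Between inhibitor-treated and MTAP-negative cells 2 were called higher and 1 lower, against 30.7% of all probe sets (17.4% higher, 13.3% lower), and 4 of 7 did not overlap, against 50.6% (27.5% higher, 23.1% lower). NFKB2 is 1 of the 2 called higher and 1 of the 4 without overlap, and the limit on it holds for these counts. The median was 0.03, as over all probe sets to 2 decimals. The comparisons share arrays in pairs, so a member's differences in them are not independent. A count of 7 is small, and 2 of the 7 probe sets read 1 gene.

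**Figure D2:**
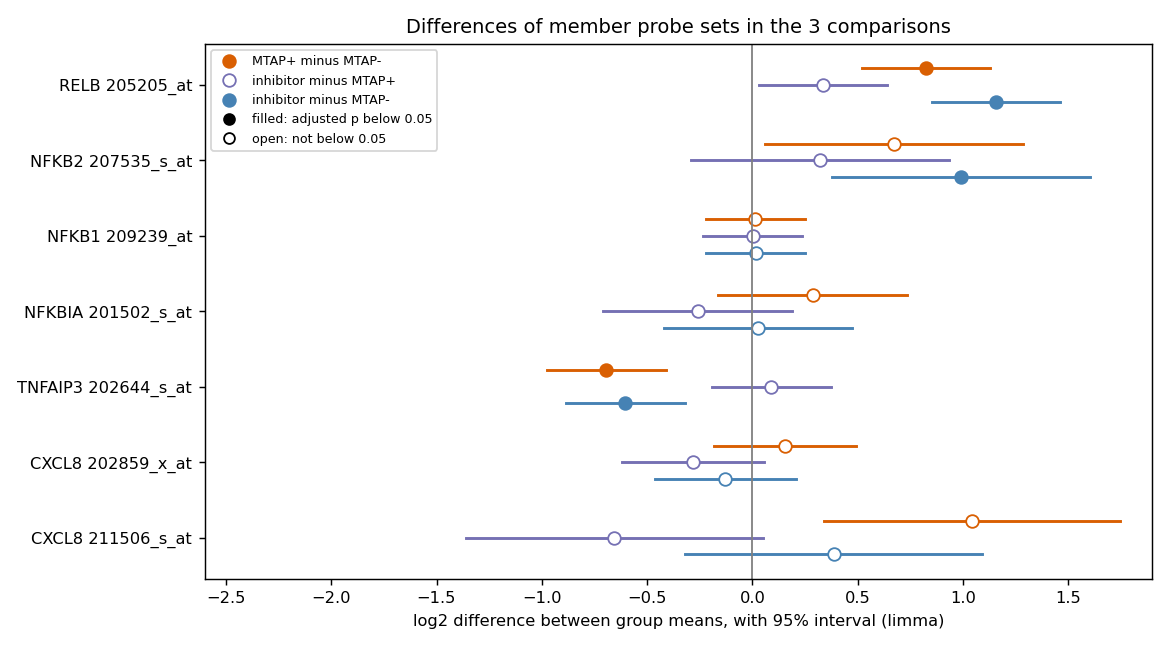
Log2 differences between group means of the 7 member probe sets in the 3 comparisons (horizontal axis), with 95% intervals from limma; filled points have an adjusted p below 0.05. RELB and TNFAIP3 are filled in both comparisons with MTAP-negative cells, on opposite sides of 0, and no point for the inhibitor against MTAP-positive cells is filled. NFKB2 is filled for inhibitor-treated against MTAP-negative cells, where the rule for keeping probe sets fixed its direction.

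Some members varied with the replicate number within each group. NFKBIA deviated from its group mean by 0.16, 0.31 and 0.38 on the replicate 2 arrays of the MTAP-negative, MTAP-positive and inhibitor-treated groups, and by -0.15, -0.30 and -0.30 on the replicate 3 arrays. The first CXCL8 probe set was likewise above its group mean on every replicate 2 array, by 0.18, 0.25 and 0.15. In all, 3 of the 7 member probe sets were above the group mean on all 3 replicate 2 arrays (these and NFKB2), and 2 were below it on all 3 replicate 3 arrays (NFKBIA and NFKB2). On the replicate 1 arrays 1 probe set, RELB, was above its group mean in all 3 groups, by 0.22, 0.11 and 0.04. There 2 probe sets were below it in all 3 groups, NFKBIA and the first of CXCL8. The replicate 2 arrays were mixed for the others. The second CXCL8 probe set deviated there by -0.13, 0.85 and 0.35, TNFAIP3 by -0.05, 0.26 and -0.04, and NFKB1 by -0.02, -0.04 and 0.08. Over the 9 arrays, after group means were taken out, the deviations of NFKBIA correlated with those of NFKB2 at r = 0.91 and with those of the 2 CXCL8 probe sets at r = 0.76 in each case, but with those of RELB at r = 0.09. Both values of a point come from the same array, and the correlations are descriptions.

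The ACTB reading varied on some of the same arrays. Among MTAP-positive arrays it was -1.33, -1.03 and -1.92 for replicates 1 to 3, and with inhibitor -1.93, -0.88 and -2.09, so that replicate 2 was closest to 0 in both groups and highest for NFKBIA in both. In MTAP-negative cells it was -1.81, -2.17 and -3.52, and there replicate 1 was closest to 0 while NFKBIA was highest in replicate 2. The part of RNA integrity in the spread of NFKBIA, NFKB2 and CXCL8 was not tested beyond the covariate values given above.

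**Figure D3:**
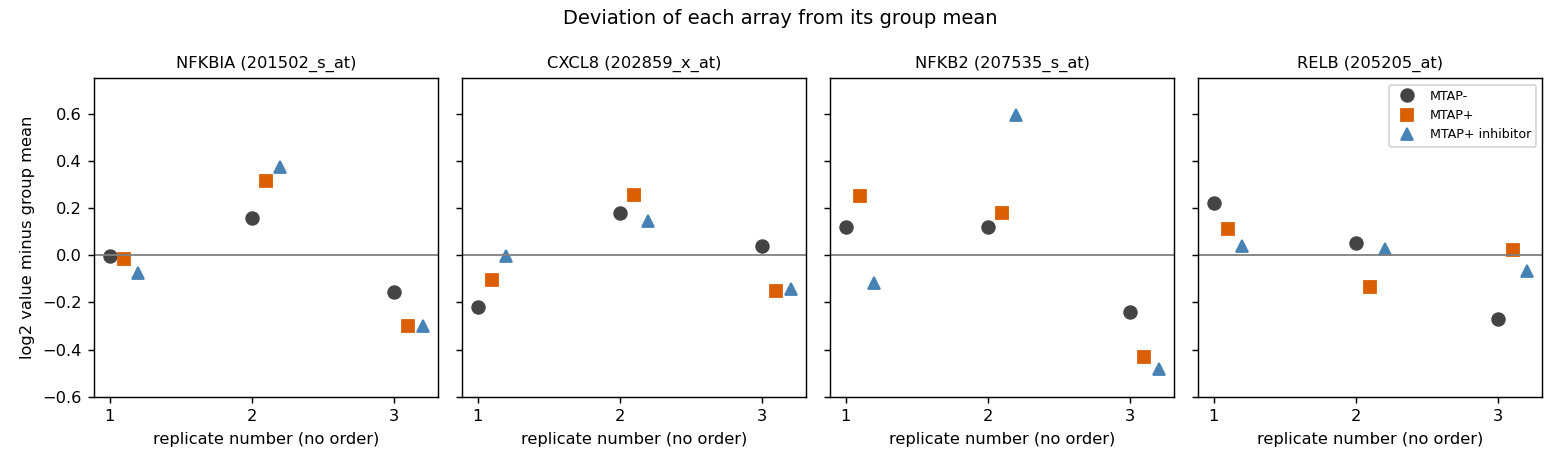
Log2 deviation of each array from its group mean (vertical axis) by replicate number, for NFKBIA, the first CXCL8 probe set, NFKB2 and RELB; colours and symbols are the 3 groups. The NFKBIA points of the 3 groups fall together at each number, above 0 at replicate 2 and below 0 at replicate 3. The RELB points lie above 0 at replicate 1 and on both sides of 0 at replicates 2 and 3.

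The wider pathway was described with 5 lists, each gene by its probe set of highest mean. Of 141 genes 93 had values, 18 higher and 6 lower in MTAP-positive than in MTAP-negative cells, where 15.1% of all 9453 genes were called, 9.84% higher and 5.31% lower. Their median difference was 0.12 against 0.02 over all genes. Of the 18, CXCL3 and TRAF1 reached log2 of 100 on no MTAP-negative array, so that they are in the table only through groups where they are higher. With inhibitor 5 rose and 3 fell, against 10.6% of all genes called (4.63% higher, 5.95% lower). Against MTAP-negative cells 24 were higher and 10 lower in inhibitor-treated cells, beside 32.2% of all genes (17.3% higher, 14.9% lower). Of the 24, MMP9 reached log2 of 100 on no MTAP-negative array, so the rule that kept it fixed its direction there.

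Cytokines and chemokines had the largest median of the 5 lists in both comparisons with MTAP-negative cells; with inhibitor it was 0.13, beside 0.14 for the other target genes. Only 8 of its 26 genes had values, with a median difference of 0.64 between MTAP-positive and MTAP-negative cells. Of them 6 were higher and 0 lower in MTAP-positive cells, beside 9.84% and 5.31% of all genes. Of these 8, CXCL3 reached log2 of 100 on no MTAP-negative array, and IL1A, IL15 and IL32 on 1 each. These genes were kept through the groups where they are higher, so the list's medians and counts describe what was kept. The differences of these genes from MTAP-negative cells, and their p-values, are likewise given as descriptions. LIF, a cytokine of the interleukin-6 family, read 9.47, 9.53 and 9.49 in MTAP-negative cells, 10.47, 10.43 and 10.34 in MTAP-positive cells and 10.57, 10.55 and 10.49 with inhibitor, so that the MTAP-negative arrays stood apart. IL15, a growth factor of lymphocytes, was higher by 1.02 ± 0.16 on the log2 scale (adjusted p = 0.00317), and its MTAP-positive mean stood 0.96 above log2 of 100. IL32, an inflammatory cytokine, was higher by 0.60 ± 0.11. CXCL3, a close relative of CXCL1, averaged 0.39 above log2 of 100 in MTAP-positive cells, and its direction was fixed by the rule that kept it. With the ACTB covariate 4 of the 6 lost their call (CXCL3, IL32, IL1B and CSF1) and 2 kept it (LIF and IL15), the limit on IL15 still holding. The call of CSF1 was lost in 12 of 20 alternatives, among them each left-out MTAP-negative array (adjusted p of up to 0.119). IL11, a relative of LIF, passed in no comparison.

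IL1A, which encodes the alarm cytokine interleukin-1 alpha, was the member of that list called with inhibitor. It read 6.92, 7.74 and 7.47 in MTAP-positive cells and 8.18, 8.87 and 8.59 with inhibitor, against 6.56, 7.08 and 6.49 in MTAP-negative cells. The inhibitor-treated arrays lay above all others, by 1.17 ± 0.25 over MTAP-positive cells (adjusted p = 0.0202). This call was lost without MTAP-positive replicate 1 and without inhibitor-treated replicate 2 or 3, with an adjusted p of up to 0.0826. Beside these cytokines, the blood and macrophage markers had 2 of 12 genes with values, LYZ and LCP1. LYZ read 4.89 ± 0.06 in MTAP-negative, 7.35 ± 0.51 in MTAP-positive and 5.68 ± 0.05 in inhibitor-treated cells (SD, n = 3), and only its MTAP-positive arrays reached log2 of 100. The mean level of LYZ and LCP1 ranged from 7.22 to 7.42, from 8.18 to 8.84 and from 7.89 to 8.00 over the arrays of these groups, and the defining markers PTPRC, CD14 and CSF1R were blank. Their part in the cytokine values was not tested.

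Of the receptors 11 of 23 had values, and 2 were higher with MTAP: TNFRSF21, a death receptor (1.06 ± 0.15, adjusted p = 0.00218), and TNFRSF1A, the main TNF receptor (0.86 ± 0.14, adjusted p = 0.00465). Between inhibitor-treated and MTAP-negative cells 3 receptors were higher and 2 lower, the added rise being IL1RAP, the accessory chain of the interleukin-1 receptor (0.79 ± 0.19, lost without MTAP-negative replicate 1 or inhibitor-treated replicate 2 or 3, adjusted p of up to 0.0505), and one of the falls the death receptor FAS (-0.67 ± 0.14). With inhibitor 0 of the 11 were called. Over all genes the shares called were 15.1% with MTAP, 10.6% with inhibitor and 32.2% for inhibitor-treated against MTAP-negative cells. TNFRSF10B and IL6ST, the signalling chain shared by interleukin-6 and LIF, passed in no comparison.

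Of the adaptors and kinases 30 of 36 had values, and 3 were higher and 0 lower with MTAP, beside 9.84% and 5.31% of all genes. IRAK2, a kinase-like adaptor below the interleukin-1 and Toll-like receptors, read 7.72 ± 0.14, 8.88 ± 0.35 and 9.44 ± 0.09 in MTAP-negative, MTAP-positive and inhibitor-treated cells (SD, n = 3), and its first difference was 1.16 ± 0.17 (adjusted p = 0.00251). The other called members were CARD10 and TRAF1, the second of which is in the table only through its MTAP-positive arrays. They lost their calls in 12 and 14 alternatives, among them any left-out MTAP-positive array (adjusted p of up to 0.236 and 0.275). With inhibitor RBCK1, a part of the linear ubiquitin ligase, rose by 0.59 ± 0.10 (adjusted p = 0.00771) and TRADD, the adaptor of the TNF receptor, fell by 0.59 (SE 0.11, adjusted p = 0.0117). The call of TRADD was lost without inhibitor-treated replicate 3 (adjusted p = 0.0624), and that of RBCK1 when its probe sets were averaged (adjusted p = 0.0559). The IKK kinase CHUK was lower in inhibitor-treated than in MTAP-negative cells (-0.43 ± 0.13, adjusted p = 0.0305), a call lost with the ACTB covariate and without MTAP-negative replicate 1 or 3 or inhibitor-treated replicate 1 or 2 (adjusted p of up to 0.111). IRAK1 and UBE2N passed in no comparison.

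Of the other subunits and inhibitors 17 of 23 had values. With MTAP 2 were higher and 1 lower, beside 9.84% and 5.31% of all genes. NFKBIZ, an inducible nuclear IkB protein, read 7.67, 7.67 and 7.72 in MTAP-negative cells, 8.49, 8.91 and 8.50 in MTAP-positive cells and 8.44, 8.65 and 8.52 with inhibitor. Its MTAP-negative arrays lay below all others, by 0.95 ± 0.13 from MTAP-positive cells (adjusted p = 0.00176). NKIRAS1, a small GTPase-like inhibitor of IkB breakdown, was lower in MTAP-positive cells by 0.41 on the log2 scale and lower again with inhibitor (-0.40 ± 0.10, adjusted p = 0.0315), calls lost in 5 and 7 alternatives (adjusted p of up to 0.126 and 0.106). The first was lost without MTAP-negative replicate 2 or 3 or MTAP-positive replicate 3, and the second without MTAP-positive replicate 1 or 2 or any inhibitor-treated array. OTUD7B, a deubiquitinase, was called higher with MTAP (0.41, adjusted p = 0.0320) and lost the call in 10 alternatives. TAX1BP1 and TNIP2, partners of A20, passed in no comparison, and TNIP1 passed only between inhibitor-treated and MTAP-negative cells (0.32 ± 0.11, adjusted p = 0.0475, lost in 11 alternatives).

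Of the other target genes 27 of 33 had values, and they went both ways. In MTAP-positive against MTAP-negative cells 5 were higher and 5 lower, beside 9.84% and 5.31% of all genes. The stromelysin MMP3 (-1.77 ± 0.16), the BCL2 relative BCL2A1 (-1.56 ± 0.16) and tissue factor F3 (-1.35 ± 0.14) were lower, and the immunoproteasome subunit PSMB9 was higher (1.26 ± 0.20). IRF1, a transcription factor of the interferon response, read 7.42, 7.24 and 7.26 in MTAP-negative, 8.45, 8.23 and 8.78 in MTAP-positive and 8.05, 7.89 and 7.94 in inhibitor-treated cells. It fell by 0.53 with inhibitor (SE 0.14, adjusted p = 0.0445), a call lost in 10 alternatives, 8 of them left-out arrays (adjusted p of up to 0.146). The gelatinase MMP9 read 7.36, 6.72 and 7.84 in MTAP-positive cells and 9.40, 9.04 and 8.73 with inhibitor, with no overlap and a rise of 1.75 ± 0.26 (adjusted p = 0.00506) that was called in all 20 alternatives. LAMB3, a laminin chain, and PLAU, the urokinase, also rose with inhibitor, by 0.80 ± 0.18 and 0.40 ± 0.11, calls lost in 3 and 10 alternatives, among them any left-out inhibitor-treated array (adjusted p of up to 0.0983 and 0.135). SDC4 and DRAM1 passed in no comparison.

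**Figure D4:**
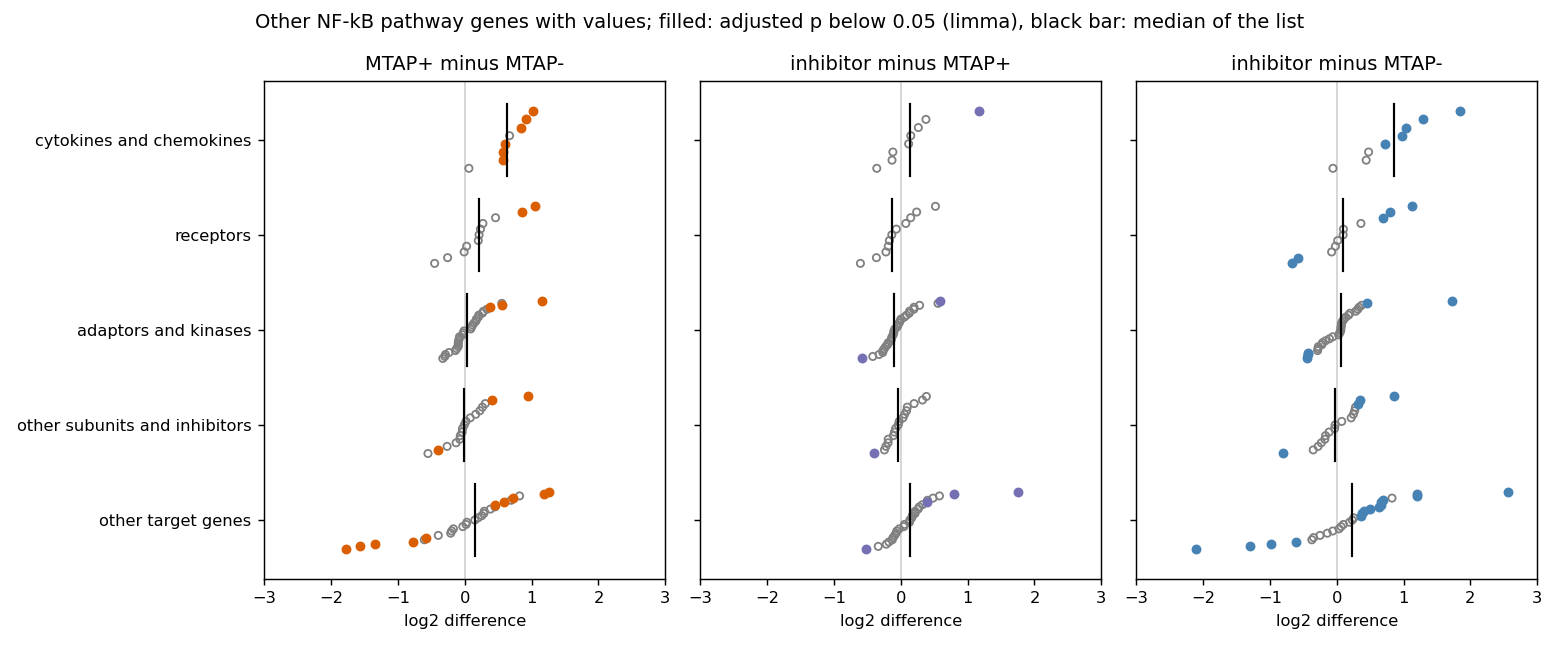
Log2 differences (horizontal axis) of the 93 other pathway genes with values in the 3 comparisons, by list; filled points have an adjusted p below 0.05 and the black bar is the list's median. Cytokines and chemokines have the largest median in MTAP-positive against MTAP-negative cells (0.64), and the other target genes have called members on both sides of 0. Of the cytokine list, CXCL3, IL1A, IL15 and IL32 were kept through the groups where they are higher.

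RELB had the largest range of group means among the member probe sets, 1.16. Over the 9 arrays the genes whose levels were most like it by Pearson correlation were MPI, which encodes mannose phosphate isomerase (r = 0.99), TUBGCP2, a part of the gamma-tubulin complex (0.98), IL32 (0.98), the noncoding MCM3AP-AS1 (0.98) and the membrane protease MMP14 (0.98). Of 9447 genes 456 had r above 0.9, so such a likeness over 9 arrays in 3 groups was common. MCM3AP-AS1 reached the level required for keeping a probe set on no MTAP-negative array, and IL32 on only 1. These genes were kept through the groups where they are higher, so their likeness to RELB is given as a description. IL32 read 6.65 ± 0.12, 7.25 ± 0.11 and 7.63 ± 0.10 in MTAP-negative, MTAP-positive and inhibitor-treated cells (SD, n = 3). It was picked for its likeness to RELB on these same arrays, so that the shared order of groups follows from the choice.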

How the data were processed

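The deposited values are log2 signals. The submitters' processing notes name RMA as the authors' method, with version and settings not given in the sources used here. Of 54675 probe sets 37201 were blank, 17474 had values on all arrays and 8 of these were controls. Of the 17466 tested, 15485 carried 1 gene symbol, 841 several and 1140 none; matching by Entrez number changed 0 symbols. A model with 3 groups was fitted with limma 3.58.1 in R 4.3.3 and tested on simulated data. No further filter was set and every probe set was tested, since members are probe sets. The members and lists were chosen with earlier results of these data known. Named list genes were up to 4 called members per list and comparison with the largest difference, and up to 2 of highest mean called in none. LYZ, LCP1, KRT8, KRT18, TIE1, IL1B, CSF1 and the genes of single counts were named with their values known. Alternatives were a filter on low values, single or averaged probe sets per gene, centred or renormalised arrays, other limma settings, an ACTB covariate, the replicate number as a block, and leaving out each array.

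Arrays carry the numbers 1 to 3 within each group. Deviations from group means of same-numbered arrays correlated at 0.284, 0.225 and 0.248 between MTAP-negative and MTAP-positive cells. Between MTAP-positive cells without and with inhibitor the correlations were 0.70, 0.59 and 0.32. Between MTAP-negative and inhibitor-treated cells they were 0.20, 0.01 and -0.01. These values do not settle whether the numbers are a pairing through all groups. The main fit has no block for the replicate number, and results with the block are given as an alternative.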

Additional observations from a re-analysis of the deposited data

How the results depend on the processing

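Of the members' results, RELB and TNFAIP3 kept direction and call in both comparisons with MTAP-negative cells under every alternative that gave a value, and no call reversed; TNFAIP3 and NFKB2 had no value with the filter at the 40th percentile (log2 7.96). Between MTAP-positive and MTAP-negative cells the 2 called member probe sets became 4 with the replicate block, where the calls over all probe sets went from 2586 to 3779. They became 4 with the block on centred arrays, an alternative chosen after seeing the data, where all calls went to 3895. The block changed no other member call. The members' median went from 0.29 to 0.078 with the ACTB covariate, and with inhibitor from 0.00 to -0.26 with the filter, which left fewer members. Between inhibitor-treated and MTAP-negative cells the filter left 1 of 3 called.

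Over all probe sets, 2586 became 1385 when the third group was left out of the fit. The ACTB covariate brought it to 851. With inhibitor 1805 became 2726 with the replicate block and 2752 with the block on centred arrays. Between inhibitor-treated and MTAP-negative cells 5361 became 3307 with 1 probe set per gene and 3282 with the mean of a gene's probe sets, where fewer rows are tested. Leaving out 1 array gave 1458 to 2809, 452 to 1836 and 3562 to 6032 calls in the 3 comparisons, in the order above. It gave 2 to 3, 0 to 0 and 2 to 3 called members, and medians from 0.13 to 0.44, from -0.04 to 0.08 and from -0.03 to 0.18. The array without which the inhibitor calls were fewest was inhibitor-treated replicate 3 (452). With 3 arrays per group, the median SE of a member's difference was 0.15.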
